A study of Mus musculus with 30 samples.

Results

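The genes described here encode 9 apolipoproteins and the transfer protein that loads lipid onto one of them. They are Apoa1, Apoa2, Apoa4, Apoa5, Apob, Apoc1, Apoc3, Apoe, Apom and Mttp. They were chosen by name, and all 10 were found among the 48440 genes of the count table and passed the filter on low counts with 16304 genes in all. Livers came from female C57BL/6J mice, wild type, fitted at 8 weeks of age with an osmotic pump, and their mRNA was sequenced. The pump delivered buffered saline (PBS) or ACBP/DBI, the acyl-CoA-binding protein, at 2.5 mg/mL. Anorexia was induced after 48 h by CRS, which the labels give as letters alone, or after 72 h by CDDP (cisplatin, which forms DNA crosslinks). With the PBS pump there were the groups PBS, CDDP and CRS, and with the ACBP pump the groups ACBP, CDDP+ACBP and CRS+ACBP, 5 libraries in each of the 6. The labels list no group in which food alone was restricted, so effects of a model and of eating less cannot be told apart. They do not say that each library is a separate animal, so p-values measure the spread between libraries.

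Hepatocytes secrete triglyceride in very low density lipoproteins (VLDL), each built around a single molecule of apolipoprotein B, onto which the microsomal triglyceride transfer protein (Mttp) loads lipid inside the endoplasmic reticulum. The liver also secretes the smaller exchangeable apolipoproteins, which ride on VLDL, chylomicron remnants and high density lipoproteins (HDL), activate or restrain lipases, and guide uptake by receptors. Apolipoprotein A-IV is made mainly by the small intestine in the fed state, and mouse liver makes it as well, with more of it when fat builds up in hepatocytes.

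Cisplatin under the PBS pump split these genes. Apoa4, Apom, Mttp, Apoa5 and Apob rose in CDDP against PBS, Apoc1, Apoa2 and Apoc3 fell, and Apoa1 and Apoe did not pass the test. That made 8 called of 10, beside 41.4% of all genes tested. Apoa4 moved most, from a mean of 207 to 11863 CPM (reads of a gene per 1000000 reads on genes), and Apom rose 5.33-fold. With the ACBP pump, none of the 10 passed the test for cisplatin, beside 0.129% of all genes. The difference between the cisplatin effects under the 2 pumps passed the test in 7 of the 10 genes and in 19.7% of all genes.

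4 of the genes, Apoa1, Apoc3, Apoa4 and Apoa5, lie within 43.3 kb of chromosome 9 in build mm10. Apoe and Apoc1 lie with Apoc4 and Apoc2 within 27.6 kb of chromosome 7. The stretch before the annotated start is printed for 5 genes to set the neighbours that rose (Apoa4, Apoa5) beside one that did not pass the test (Apoa1), and Apob beside Apoa2, which fell. The sequences are RefSeq's for GRCm38.p6, 5′ to 3′ on the plus strand, on which these 5 genes lie. Each stretch ends just before the GENCODE start. RefSeq places the start further on for Apoa4 (46240844 against 46240696), Apoa1 (46228630 against 46228580) and Apob (7977677 against 7977648). For Apoa5 and Apoa2 both give the same base, so the stretches do not all lie alike against the RefSeq start. 8 of the 10 genes matched the promoter table. Capitals mark matches, on either strand, to TATAAA (the TATA box), CAAAG (the core of sites for HNF4), GGGTCA (a nuclear receptor half-site), TGTTTGC or TGTTTAC (forkhead sites) and CACGTG (an E-box). Matches of different motifs may overlap.
Apoa4: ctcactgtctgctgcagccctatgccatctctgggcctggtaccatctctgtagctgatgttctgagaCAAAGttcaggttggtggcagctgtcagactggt
Apoa5: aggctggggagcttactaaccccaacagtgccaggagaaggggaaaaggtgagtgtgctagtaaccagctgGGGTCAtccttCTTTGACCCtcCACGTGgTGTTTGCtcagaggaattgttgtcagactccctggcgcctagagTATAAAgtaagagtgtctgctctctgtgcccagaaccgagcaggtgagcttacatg
Apoa1: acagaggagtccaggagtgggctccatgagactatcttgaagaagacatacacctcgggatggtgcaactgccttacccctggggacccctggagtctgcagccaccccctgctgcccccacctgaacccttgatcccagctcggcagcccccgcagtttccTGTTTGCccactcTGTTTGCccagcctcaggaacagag
Apob: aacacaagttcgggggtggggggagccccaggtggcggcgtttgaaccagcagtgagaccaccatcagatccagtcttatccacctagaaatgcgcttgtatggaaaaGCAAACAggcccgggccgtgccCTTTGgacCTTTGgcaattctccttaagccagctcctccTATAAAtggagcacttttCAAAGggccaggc
Apoa2: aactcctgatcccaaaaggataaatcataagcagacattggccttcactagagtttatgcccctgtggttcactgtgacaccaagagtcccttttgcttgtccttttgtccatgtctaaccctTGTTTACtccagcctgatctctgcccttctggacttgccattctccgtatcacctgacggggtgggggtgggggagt
They span chr9:46240594-46240695 for Apoa4 (102 bases), chr9:46268433-46268632 for Apoa5, chr9:46228380-46228579 for Apoa1, chr12:7977448-7977647 for Apob and chr1:171224854-171225053 for Apoa2 (200 bases each). The Apoa5 stretch held 5 of the 6 motifs, the Apob stretch held a TATA box, 3 CAAAG matches and a TGTTTGC match, and the Apoa4 stretch held 1 CAAAG match. Over 32544 promoters cut to 200 bases, 9.89% held TATAAA, 40.4% CAAAG, 9.53% GGGTCA, 3.36% TGTTTGC, 2.51% TGTTTAC and 5.27% CACGTG. Cut to 102 bases, as for Apoa4, 25.2% held CAAAG. A match is a run of letters, and binding was not measured.

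The libraries held 13957380 to 18479134 reads on genes. All 12 hepatocyte markers examined were detected in every group, the list summing to between 47532 (CDDP+ACBP replicate 3) and 184001 CPM (CDDP replicate 5). Of the 12, 5 were called higher and 3 lower in CDDP against PBS, where 41.4% of all genes were called. In CDDP+ACBP against CDDP 2 were called higher and 5 lower, where 33.8% of all genes were called. Transcripts of skeletal muscle or brain were high in 7 libraries (PBS replicate 2, CRS replicate 1, ACBP replicates 2 and 4, CDDP+ACBP replicate 2, CRS+ACBP replicates 3 and 4). The limit was a score (mean log2 CPM with 0.1 added) above 6 for muscle markers or above 2 for brain markers. ACBP replicate 4 passed it by brain markers alone. Among libraries below it, muscle markers still summed to 964 CPM in CDDP replicate 5, 821 in CRS replicate 4 and 358 in CDDP replicate 1. In CDDP replicate 4 they summed to 15.7. CPM are given after TMM scaling, a correction for differences in makeup between libraries, whose factor was 0.701 in CDDP replicate 5 and at most 1.19. Calls rest on edgeR's quasi-likelihood test, at an adjusted p (Benjamini-Hochberg) under 0.05. Cdkn1a and Eda2r, p53 targets, were chosen after their values were seen. Eda2r was 0.123 to 0.814 CPM in PBS and 3.55 to 7.90 in CDDP, and 0.126 to 0.358 in ACBP and 1.75 to 3.91 in CDDP+ACBP. Cdkn1a, whose product arrests the cell cycle, was 0.687 to 6.45 CPM in PBS and 154 to 455 in CDDP. It was 1.81 to 10.3 in ACBP and 5.12 to 63.2 in CDDP+ACBP, where the ranges overlapped and the difference did not pass (adjusted p = 0.0748).

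**Figure D1:**
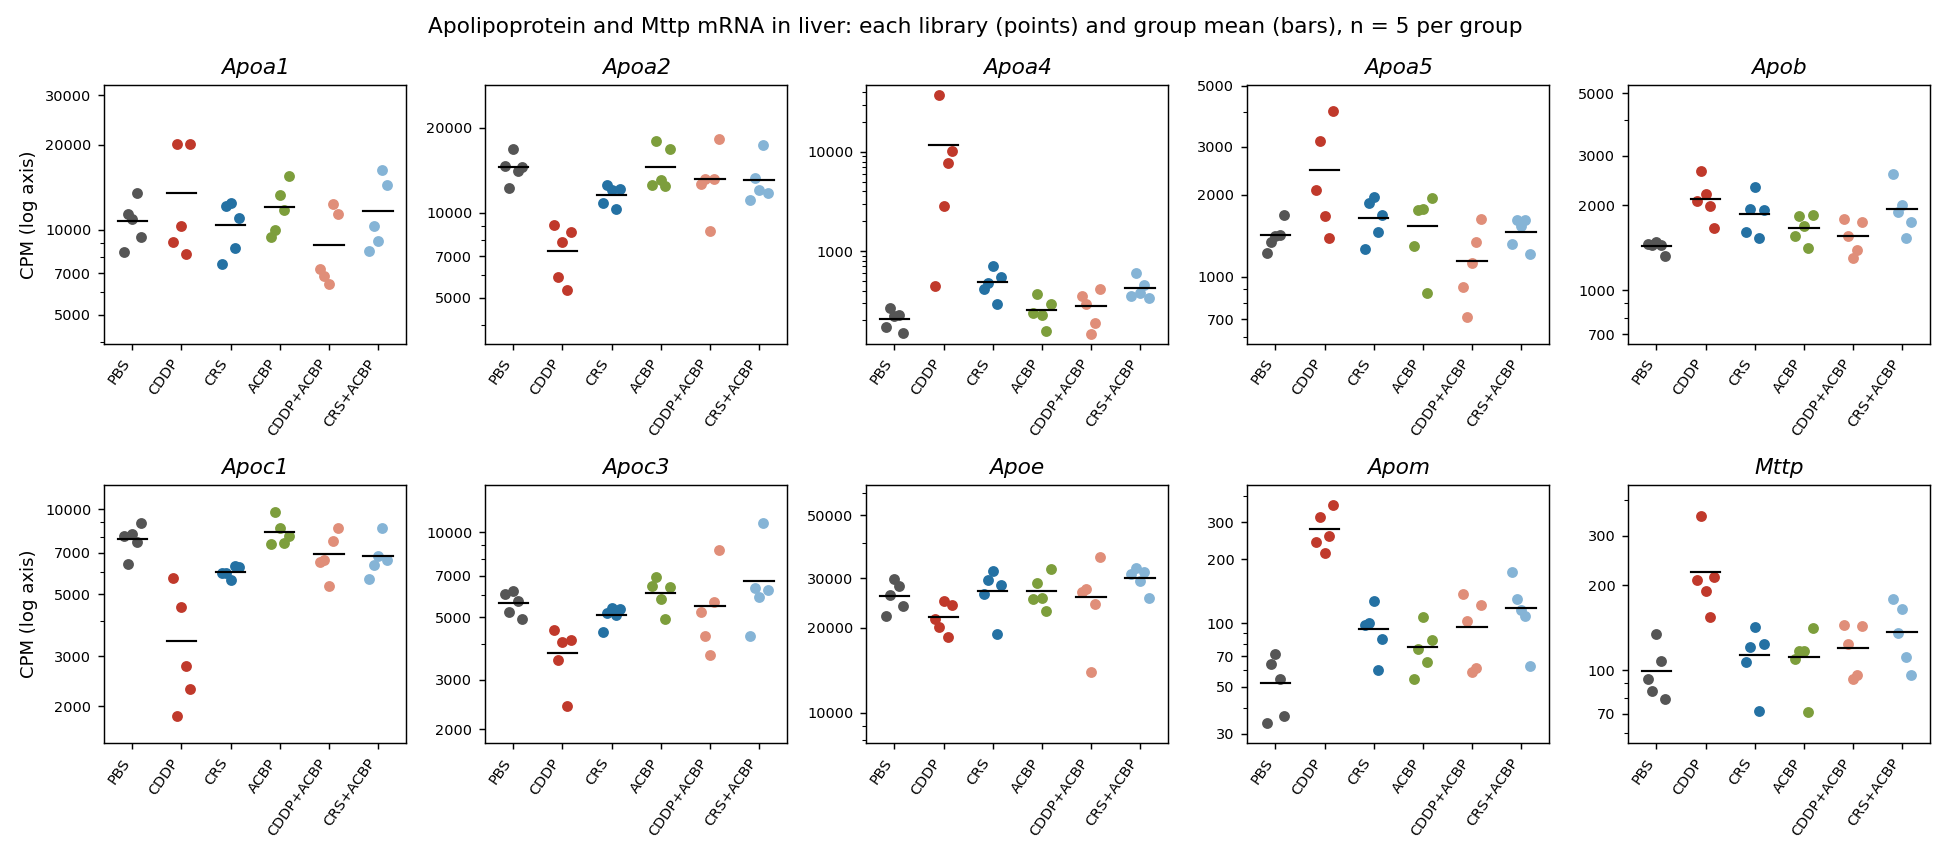
CPM of each gene (log axis) in each of 30 liver libraries, 5 per group; bars are group means. Apoa4 spans 443 to 37953 CPM in the CDDP libraries, and Apom has no CDDP library below 215 CPM or any other library above 174.

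Per kilobase of exon, where genes can be compared with each other, Apoa2 stood highest in PBS with a mean of 26935 CPM per kb. Apoe (12157), Apoc1 (10551), Apoa1 (8656) and Apoc3 (5528) followed, and Apoa5 (562), Apoa4 (114), Apob (103), Apom (51.5) and Mttp (16.1) were far lower. The 10 genes together took 6.95% ± 0.40 of the reads on genes in PBS (SD, n = 5) and 6.39% ± 1.68 in CDDP. Without Apoa4 the shares were 6.92% ± 0.40 in PBS and 5.27% ± 0.66 in CDDP. Of the sum of the 10 per-kilobase levels, Apoa4 made up 0.176% in PBS and 12.8% in CDDP, and Apoa2 41.6% and 26.8%.

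Of all 16304 genes, 41.4% were called in CDDP against PBS, 23.1% higher and 18.3% lower. Among the 10 described here 8 were called, 5 higher and 3 lower. Their median log2 fold change was 0.45, beside 0.018 over all genes tested. The CDDP and PBS libraries did not overlap for 7 of the 10 and for 24.6% of all genes.

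Apob and Mttp, the pair that forms the nascent VLDL particle, both rose. Apob (ENSMUSG00000020609, mm10 chromosome 12, 7977648 to 8016835, plus strand) encodes the structural protein of VLDL. It was at 1463, 1447, 1483, 1444 and 1326 CPM in PBS and 2077, 2653, 2188, 1987 and 1658 in CDDP. Every CDDP library lay above every PBS library. The means were 1433 ± 61.4 and 2113 ± 361 CPM (SD, n = 5 each), a log2 fold change of 0.56 ± 0.15 (SE, adjusted p = 0.00484). Scaled by plain library totals, CDDP replicate 5 was at 1162 CPM, below every PBS library (1402 to 1533), and the call held at log2 0.50 to 0.59 over the normalizations, filters and tools tried.

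Mttp (ENSMUSG00000028158, mm10 chromosome 3, 138089854 to 138144968, minus strand) was at 92.9, 84.4, 134, 108 and 78.9 CPM in PBS. In CDDP it was at 209, 352, 190.3, 154 and 213. The lowest CDDP library was above the highest PBS library, and CDDP replicate 2 was the highest of the 30. The means were 99.7 ± 22.3 and 224 ± 75.5 CPM, and the log2 fold change was 1.17 ± 0.23 (adjusted p = 0.000196). Exons of Mttp share 457 bases with Trmt10a and 132 with Gm43691 on the other strand. These partners stayed at or below 9.27 CPM.

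Apoa4 (ENSMUSG00000032080, mm10 chromosome 9, 46240696 to 46243459, plus strand) had the widest spread. The PBS libraries held 170.1, 269, 221, 225 and 149 CPM, and the CDDP libraries 443, 37953, 2817, 7801 and 10303. All 5 CDDP libraries were above all PBS libraries, CDDP replicate 1 by the least and CDDP replicate 2 by far the most, with an 85.7-fold range inside the group. The means were 207 ± 47.6 and 11863 ± 15099 CPM. The log2 fold change was 5.84 ± 0.68 (adjusted p = 4.27e-07), 4.69 without CDDP replicate 2 and 3.73 by limma voom with quality weights, which gives libraries that stand apart less weight. Its exons share 632 bases, 34.8% of their length, with Gm10680 on the other strand. They share a further overlap of 634 bases (34.9%) with Gm47528, also on the other strand, which was not among the genes counted. Gm10680 held 0.812 to 1.09 times the counts of Apoa4 in every library and went from a mean of 195 CPM in PBS to 10271 in CDDP. Reads of the pair cannot be told apart here.

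Since Apoa4 is known for the intestine, intestinal markers were examined. The list of 12 summed to 90.9 to 139 CPM in PBS and 81.4 to 329 in CDDP, highest in CDDP replicate 2. Anpep, which made up most of the sum in PBS, was at 69.6 to 99.2 CPM there and 17.6 to 64.5 in CDDP. Of the 12, 4 passed the filter on low counts, of which 2 rose and 1 fell. Sis and Guca2b were at 0 in all CDDP libraries, and Vil1, a brush border gene, was at 0.779 to 2.08 CPM. Krt20, a keratin gene, was at 10.8 CPM in CDDP replicate 2, the library with the most Apoa4, and at 0.0504 to 0.114 in the other CDDP libraries. Tff3, a goblet cell gene, was at 0.604 to 2.78 CPM in CDDP and at 0 to 0.431 in PBS. Fabp2, which encodes a fatty acid binding protein and is on that list, was at 19.4 to 37.8 CPM in PBS and at 36.3, 272.5, 52.6, 36.8 and 60.6 in CDDP. In CDDP replicate 2, Cidec, a lipid droplet gene on the adipocyte list, stood at 335 CPM, against 3.07 to 25.1 in the other CDDP libraries. Adipoq, a defining adipocyte marker, was at 0.111 CPM in that library and at most at 0.17 in the other CDDP libraries. Fabp4 (22.3 CPM) and Plin1 (0.334), also on the adipocyte list, were highest in that library, against at most 20.5 and 0.0568 in the others. Lipe, at 19.6 CPM, lay within the range of the other CDDP libraries (9.48 to 24.8), and Cfd, Retn and Lep were at 0. The part of these genes in the Apoa4 values was not tested.

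Apom (ENSMUSG00000024391, mm10 chromosome 17, 35128997 to 35132050, minus strand) encodes the HDL apolipoprotein that carries sphingosine 1-phosphate. It was at 33.8, 64.0, 71.9, 54.7 and 36.5 CPM in PBS and at 242, 316, 215, 257 and 361 in CDDP. The groups were far apart, and no library of any other group reached the lowest CDDP value. The log2 fold change was 2.41 ± 0.28 (adjusted p = 4.56e-07), and it stayed between 2.23 and 2.56 over all alternatives tried. Apoa5 (ENSMUSG00000032079, mm10 chromosome 9, 46268633 to 46271919, plus strand) encodes an activator of lipoprotein lipase. It was at 1222, 1343, 1414, 1418 and 1687 CPM in PBS and at 2087, 3142, 1666, 1386 and 4034 in CDDP. CDDP replicates 3 and 4 lay inside the PBS range and the other 3 above it. The log2 fold change was 0.80 ± 0.25 (adjusted p = 0.0115). Apoa5 lost the call without CDDP replicate 5 (adjusted p = 0.0673), by limma voom (0.164) and in a fit of the PBS and CDDP libraries alone (0.0568). Its exons share 524 bases with Gm47544 on the other strand.

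The 3 genes that fell encode small exchangeable apolipoproteins. Apoc1 (ENSMUSG00000040564, mm10 chromosome 7, 19689481 to 19692660, minus strand), whose product restrains lipases and remnant uptake, was at 8067, 6370.4, 8184, 7677 and 8953 CPM in PBS. In CDDP it was at 5681, 1841, 4488, 2774 and 2293. All CDDP libraries were lower than all PBS libraries, CDDP replicate 1 the least so, and the replicate with the most Apoa4 had the least Apoc1. The log2 fold change was −1.20 ± 0.22 (adjusted p = 9.62e-05).

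Apoa2 (ENSMUSG00000005681, mm10 chromosome 1, 171225054 to 171226379, plus strand), the second most abundant protein of HDL, was at 14686, 12276, 16779.6, 14032 and 14546 CPM in PBS. In CDDP it was at 9045, 5902, 7868, 5329.7 and 8547. The groups did not overlap, and the log2 fold change was −0.98 ± 0.19 (adjusted p = 0.000219). Apoc3 (ENSMUSG00000032081, mm10 chromosome 9, 46232933 to 46235636, minus strand), an inhibitor of lipoprotein lipase, was at 6033, 5221, 6181, 5684 and 4907 CPM in PBS. In CDDP it was at 4484, 3509.98, 4081, 2427 and 4134. These groups did not overlap either, and the log2 fold change was −0.59 ± 0.22 (adjusted p = 0.0307). The Apoc3 call was lost without the filter on low counts (adjusted p = 0.0897) and without PBS replicate 1 or 3 or CDDP replicate 2 or 4 (up to 0.0938).

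Apoa1 (ENSMUSG00000032083, mm10 chromosome 9, 46228580 to 46230466, plus strand), the main protein of HDL, was at 8354, 11359.9, 10881, 13443 and 9456 CPM in PBS. In CDDP it was at 9023, 20091, 10309.7, 8181 and 20085. CDDP replicates 2 and 5 were above every PBS library, and the other 3 lay within or just below the PBS range, and the log2 fold change of 0.34 ± 0.26 did not pass (adjusted p = 0.31). Apoe (ENSMUSG00000002985, mm10 chromosome 7, 19696109 to 19699188, minus strand), the ligand for remnant uptake by receptors, ranged from 22033 to 29755 CPM in PBS and from 18549 to 24932 in CDDP. The ranges overlapped, and the log2 fold change was −0.25 ± 0.19 (adjusted p = 0.306).

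**Figure D2:**
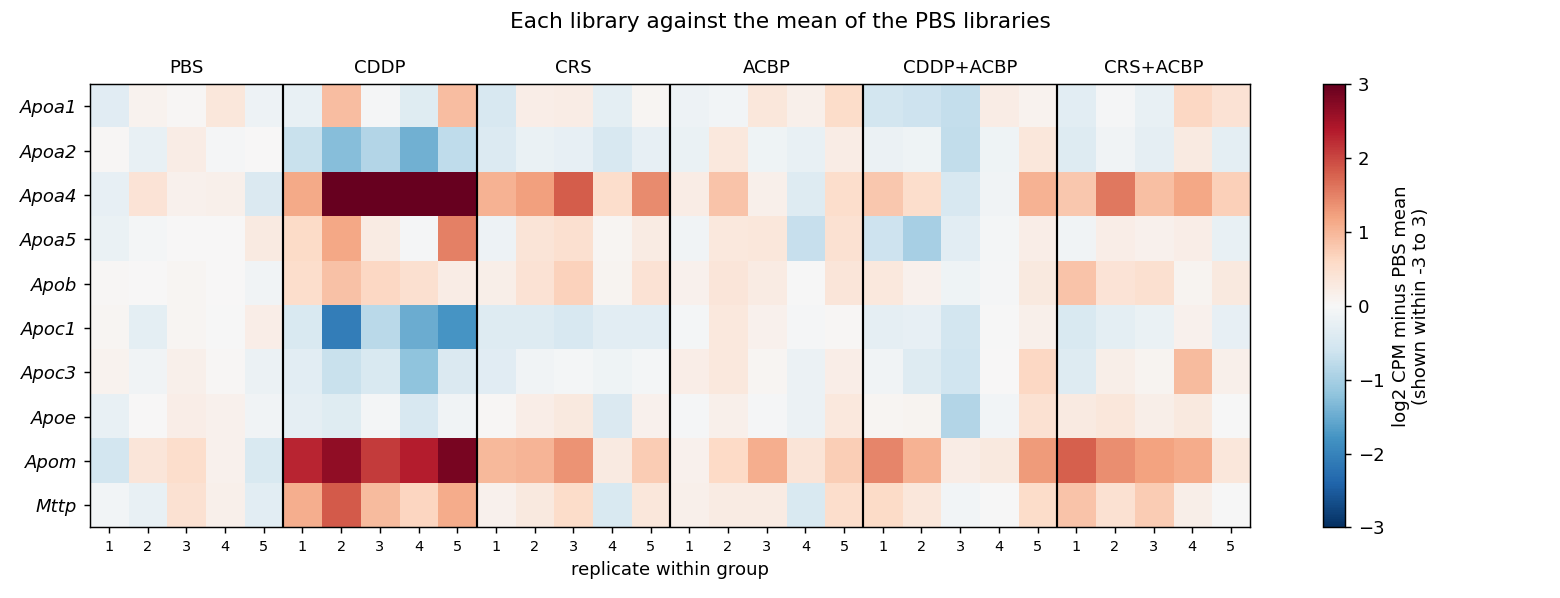
Each library's log2 CPM minus the mean of the PBS libraries, for 10 genes (rows) and 30 libraries (columns, 5 per group); red is higher, blue lower, and values are shown within −3 to 3. In CDDP the rows of Apoa4, Apom and Mttp are red and those of Apoa2 and Apoc1 blue in every library, and in CDDP+ACBP the colours are close to those of the other groups.

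The genes of the 2 clusters were also set beside their neighbours. On chromosome 9, Apoa4 and Apoa5 rose and Apoc3, between Apoa1 and Apoa4, fell, where the Apoa5 and Apoc3 calls are those lost under several settings. Of 9 further tested genes near this cluster, 3 rose (Pafah1b2, log2 0.77, Sidt2, 0.68, and Sik3, 0.53) and 1 fell (Pcsk7, −0.52). On chromosome 7, Apoc1 fell while its neighbours Apoe, Apoc4 (−0.54 ± 0.24, adjusted p = 0.073) and Apoc2 (−0.28 ± 0.34, adjusted p = 0.534) did not pass. Near that cluster 4 of 11 tested genes rose and 1 fell, with Relb, which encodes an NF-kB subunit, at log2 2.51 ± 0.61. The genes called in these 2 lists, 4 of 9 and 5 of 11, stand beside 41.4% of all genes.

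Markers of other liver cells and the mitochondrial share of reads also differed between CDDP and PBS. Mitochondrial genes took 11.5% ± 1.85 of the reads in PBS and 3.44% ± 0.42 in CDDP. Of 15 Kupffer cell and macrophage markers, cells that also make Apoe and Apoc1, 1 rose and 8 fell, and their sum was 443 to 550 CPM in PBS and 306 to 474 in CDDP. Clec4f, a defining Kupffer cell gene, was at 125 to 157 CPM in PBS and 20.6 to 67.4 in CDDP. Erythroid markers summed to 257 to 471 CPM in PBS and 6.96 to 9.32 in CDDP, and stellate cell markers to 386 to 796 and 139 to 338. Neutrophil and monocyte markers summed to 8.18 to 9.92 and 23.2 to 85.4 CPM. Of B and plasma cell markers 7 of 8 fell, and of T and NK cell markers 7 of 10. In bulk tissue, fewer cells of a type and less RNA per cell cannot be told apart. The part of these shifts in the apolipoprotein values was not tested.

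Genes that serve the apolipoproteins were examined in lists. In the list of VLDL assembly and secretion, 14 of 30 tested genes rose and 4 fell, with a median log2 fold change of 0.45, beside 23.1% higher, 18.3% lower and a median of 0.018 over all genes. Those with the smallest p were P4hb, the small subunit of the Mttp complex (1.22 ± 0.20), Sar1a, a coat GTPase for export from the endoplasmic reticulum (0.75 ± 0.13), Surf4, a cargo receptor for lipoproteins (1.02 ± 0.18), and Hspa5, a chaperone of that compartment (1.93 ± 0.37). The 4 that fell were Ces1d (−1.09), Aadac (−0.94), Dgat2 (−0.42) and Lpcat3 (−0.41), named after their values were seen. Ces1g, a carboxylesterase gene like Ces1d, was higher (1.01 ± 0.23, adjusted p = 0.000897). Of 8 genes tied to the editing of Apob mRNA, 3 rose (Dnajb11, Hnrnpab, Syncrip) and 2 fell (Rbm47, −0.99 ± 0.21, and Celf2). The deaminase gene Apobec1 itself was at log2 0.35 ± 0.19 (adjusted p = 0.129).

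Of 14 HDL remodelling genes tested, 2 rose and 4 fell, a share called near the 41.4% of all genes. The 4 were Lipg, endothelial lipase (−2.20 ± 0.42), Lipc, hepatic lipase (−1.33 ± 0.24), Abca8a, a transporter (−1.10 ± 0.28), and Pltp, the phospholipid transfer protein (−1.02 ± 0.22). Lcat, whose enzyme esterifies HDL cholesterol, was at 0.15 ± 0.17 (adjusted p = 0.503). Of 19 genes of receptors and clearance, 1 rose and 5 fell, among them Dab2 (−1.01 ± 0.21) and Stab2 (−0.80 ± 0.19). Of 14 other apolipoprotein and related genes, 2 rose and 4 fell, with Apol9b (−2.30 ± 0.27), Apol9a (−1.89 ± 0.23) and Apol7a (−1.80 ± 0.20) lower and Apoh higher (0.91 ± 0.23). Apol9a and Apol9b are near-identical copies, so their split is uncertain.

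Of 30 regulators of apolipoprotein genes, 8 were higher and 8 lower, near the shares of all genes (23.1% and 18.3%). Srebf1, the lipogenic transcription factor (−2.06 ± 0.31), Nr2f2, an orphan nuclear receptor (−1.27 ± 0.19), and Nr1h4, the bile acid receptor (−1.12 ± 0.22), fell. Ppargc1a, a coactivator of fasting genes (1.76 ± 0.34), rose. Hnf4a, which drives many of the 10 genes in hepatocytes, rose by 0.72 ± 0.17 on the log2 scale (adjusted p = 0.00126), and Creb3l3, a known activator of Apoa4, was at −0.33 ± 0.24 (adjusted p = 0.286).

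**Figure D3:**
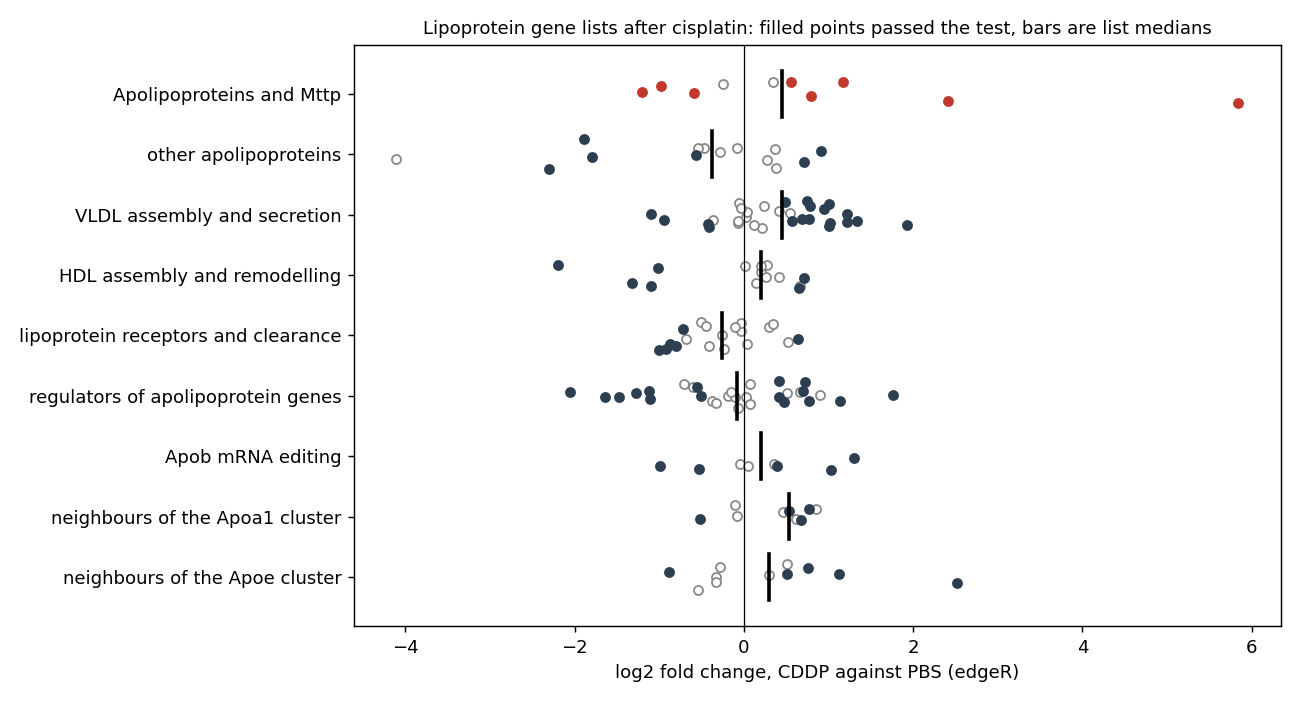
log2 fold change of CDDP against PBS (edgeR) for the 10 genes and 8 lists of related genes; filled points passed the test, bars are list medians. The VLDL list has 14 filled points to the right of 0 and 4 to the left, and the regulators 8 on each side.

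The ACBP pump under cisplatin was compared with cisplatin alone. In CDDP+ACBP against CDDP, 33.8% of all genes were called, 14.9% higher and 18.8% lower, and 8 of the 10 genes were, 3 higher and 5 lower. The members' median log2 fold change was −0.53, beside −0.0088 over all genes. The CDDP libraries are those already compared with PBS, so the values of the 2 comparisons are not independent. Libraries did not overlap for 3 of the 10 (Apoa4, Apom and Mttp) and for 14.1% of all genes.

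Apoa4 was at 352, 290.4, 145, 187 and 417 CPM in CDDP+ACBP, all below the lowest CDDP library. Its mean was 278 ± 113 CPM, and the log2 fold change against CDDP was −5.41 ± 0.66 (adjusted p = 1.77e-06), −4.27 without CDDP replicate 2. CDDP replicate 1, at 443 CPM, lay just above the highest CDDP+ACBP library, so the gap between the groups rests on the other 4. Apom was at 137, 102, 58.7, 61.3 and 122 CPM, and the log2 fold change was −1.53 ± 0.27 (adjusted p = 0.000127). Mttp was at 145, 124, 92.9, 96.4 and 143 CPM, each below all CDDP libraries (−0.90 ± 0.23, adjusted p = 0.00319). Scaled by plain library totals, the Mttp ranges overlapped, with CDDP replicate 5 at 149 CPM and CDDP+ACBP replicate 1 at 152.

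Apoa5 (−1.11 ± 0.25, adjusted p = 0.00132) and Apob (−0.44 ± 0.15, adjusted p = 0.0277) were also lower. Apoc1 (1.02 ± 0.22, adjusted p = 0.000739), Apoa2 (0.84 ± 0.19, adjusted p = 0.00137) and Apoc3 (0.56 ± 0.22, adjusted p = 0.0466) were higher. In these 5 genes the libraries overlapped: CDDP+ACBP replicate 3, for example, held 8585 CPM of Apoa2, within the CDDP range of 5329.7 to 9045. The Apoc3 call was lost in 22 of the 30 fits without 1 library, and the Apob call without CDDP replicate 2 or CDDP+ACBP replicate 3 or 4 (adjusted p of 0.0695 to 0.0923). Apob was also lost with plain library totals (0.0944), without the filter on low counts (0.112) and without the libraries rich in muscle or brain transcripts (0.0852). Apoc3 was also lost without that filter (0.123), by limma voom (0.0761) and with the muscle score as covariate (0.0566). Only Apoa4, Apom and Mttp were called in a fit of the CDDP and CDDP+ACBP libraries alone. Of the VLDL list, 1 gene of 30 was higher and 12 were lower in CDDP+ACBP, with P4hb at −0.99 ± 0.20, Vapa at −0.68 ± 0.14, Tor1a at −0.76 ± 0.17 and Surf4 at −0.73 ± 0.17. HDL remodelling genes were 3 higher and 1 lower of 14, with Lipc at 1.18 ± 0.24.

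Other cell markers differed between these groups as well. Erythroid markers summed to 6.96 to 9.32 CPM in CDDP and 166 to 1221 in CDDP+ACBP (6 of 6 tested higher), and B and plasma cell markers to 2.28 to 13.3 and 21.4 to 61.2 (7 of 8 higher). Of T and NK cell markers 6 of 10 were higher (2.39 to 5.37 and 6.71 to 11.1 CPM), and of stellate cell markers 4 of 12 (139 to 338 and 355 to 571 CPM). Sinusoidal endothelial markers were 4 higher and 1 lower of 10, and 3 of 6 neutrophil and monocyte markers were lower (23.2 to 85.4 and 6.09 to 15.7 CPM). Kupffer cell markers were 2 higher and 3 lower of 15, and summed to 259 to 390 CPM in CDDP+ACBP, within or below the CDDP range. Clec4f was among the higher, at 20.6 to 67.4 CPM in CDDP and 60.5 to 111 in CDDP+ACBP (log2 1.11 ± 0.24, adjusted p = 0.000816). Marco, on the same list, went the other way, with every CDDP+ACBP library (at most 25.7 CPM) below every CDDP library (up to 116). Mitochondrial genes took 9.19% ± 3.02 of the reads in CDDP+ACBP. The part of these shifts in the apolipoprotein differences was not tested.

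Cisplatin under the ACBP pump was then set against the ACBP pump alone, a pair of groups that shares no library with CDDP against PBS. Of all genes 0.129% were called in CDDP+ACBP against ACBP, and none of the 10 (0 at an unadjusted p under 0.05, and 0 by DESeq2 and by limma voom). The largest change was −0.44 ± 0.26, in Apoa1. Libraries overlapped for all 10, and did not for 1.2% of all genes. Kupffer cell and macrophage markers were 0 higher and 6 lower of 15, and summed to 501 to 619 CPM in ACBP and 259 to 390 in CDDP+ACBP. The other marker lists had no called gene here. The part of this shift in the apolipoprotein values was not tested. Apoa4 was at 235, 365, 224, 154 and 294 CPM in ACBP, with a mean of 254 ± 79.1, and at 278 ± 113 in CDDP+ACBP. Apom was at 77.3 ± 19.9 in ACBP and 96.3 ± 35.4 in CDDP+ACBP, and Mttp at 111 ± 25.5 and 120.3 ± 24.8. The sign was that of CDDP against PBS in 7 of the 10 genes, and the share over all genes was not computed. Apoa5 (−0.42) and Apob (−0.10), both called higher in CDDP against PBS, had the other sign, as did Apoa1. The signs of Apoa4, Apoe and Mttp changed in some of the alternative fits.

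The difference between the cisplatin effects under the 2 pumps was tested directly as an interaction. It was called for 19.7% of all genes, 8.38% higher and 11.3% lower, and for 7 of the 10, 2 higher and 5 lower. The log2 difference, effect with ACBP minus effect with PBS, was −5.71 ± 0.83 for Apoa4 (adjusted p = 8.62e-05), −2.10 ± 0.38 for Apom (0.00061), −1.22 ± 0.35 for Apoa5 (0.0159), −1.05 ± 0.32 for Mttp (0.02) and −0.66 ± 0.22 for Apob (0.0321). It was 0.95 ± 0.31 for Apoc1 (0.0285) and 0.83 ± 0.27 for Apoa2 (0.0292). Apoc3 (0.44 ± 0.31, adjusted p = 0.32), Apoe (0.18 ± 0.27, 0.671) and Apoa1 (−0.78 ± 0.37, 0.137) did not pass. Without the 7 libraries rich in muscle or brain transcripts, Apoa4 and Apom alone remained called, and Mttp was at −1.15 (adjusted p = 0.0514). Leaving out CDDP replicate 2 ended the calls of Mttp (adjusted p = 0.0534) and Apob (0.0647), with Apoa4 then at −4.56. Apob was also lost without PBS replicate 5, ACBP replicate 2 or 5 or CDDP+ACBP replicate 3 or 4. Apoa2 was lost without PBS replicate 3, CDDP replicate 4, ACBP replicate 1 or 4 or CDDP+ACBP replicate 5, and Apoc1 without PBS replicate 5, CDDP replicate 4 or CDDP+ACBP replicate 4 or 5.

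**Figure D4:**
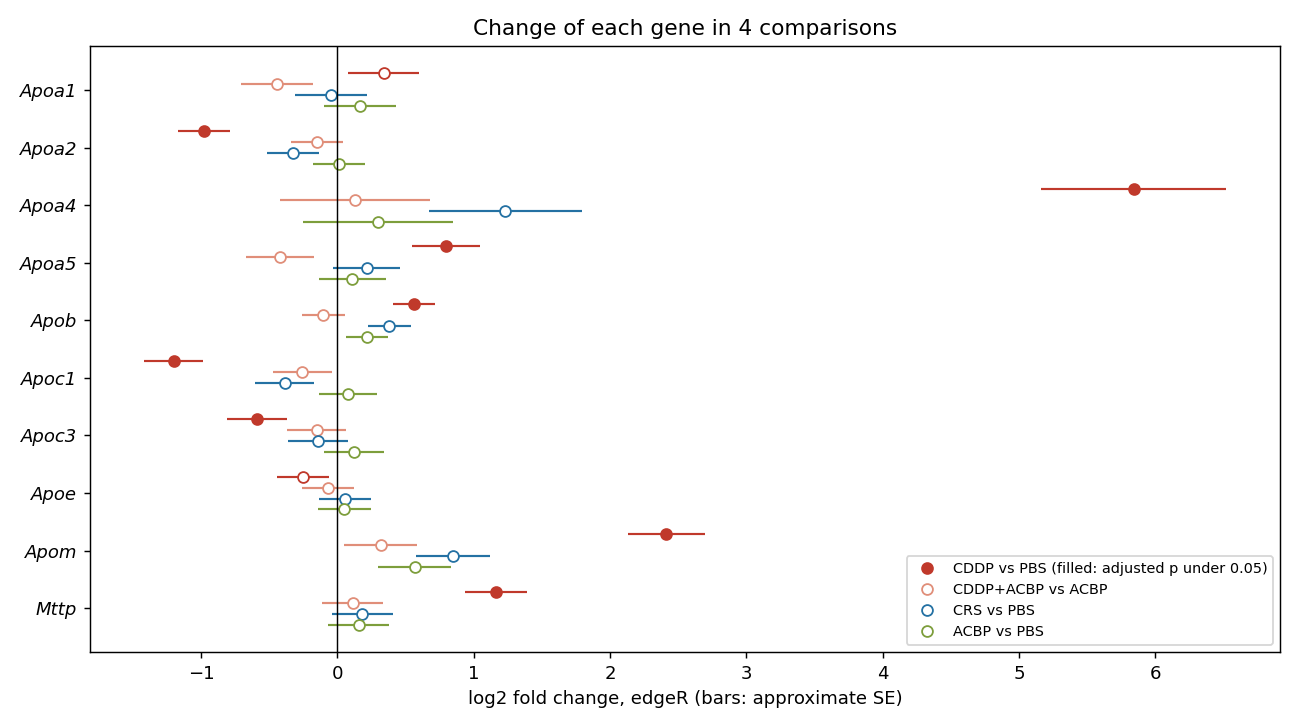
log2 fold change (edgeR) with its approximate SE for 10 genes in 4 comparisons; filled points passed at an adjusted p under 0.05. Filled points occur only for CDDP against PBS (8 of 10 genes), and the CDDP+ACBP against ACBP points lie between −0.44 and 0.32.

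CRS libraries lay above all PBS libraries in Apoa4 and Apob and below them in Apoc1, but edgeR called none of these differences. In CRS against PBS, 0.141% of all genes were called by edgeR and none of the 10. An unadjusted p under 0.05 was found for 3 (Apoa4, Apob, Apom), beside 8.97% of all genes. DESeq2 called 0 of the 10 (82 genes in all) and limma voom those 3 (930 genes in all). A fit of the PBS and CRS libraries alone called Apoa4 (265 genes in all). Apoa4 was at 414, 472, 711, 291 and 543 CPM in CRS, every library above the PBS maximum of 269. Its mean was 486 ± 156, and the log2 fold change was 1.23 ± 0.56 (adjusted p = 0.532, and 0.0361 by voom and 0.0159 in the fit of those 2 groups). The SE of the fit of 30 libraries includes the wide spread among CDDP libraries.

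Apob was at 1615, 1940.4, 2324, 1527 and 1934 CPM in CRS, again above all PBS libraries (0.38 ± 0.15, adjusted p = 0.469). Apoc1 was at 5955, 5935, 5617, 6302 and 6223 CPM, below all PBS libraries (−0.39 ± 0.22, adjusted p = 0.61). Libraries of CRS and PBS thus did not overlap for 3 of the 10 and for 4.29% of all genes. Apom was at 97.6, 100.5, 127, 60.0 and 84.2 CPM, and overlapped PBS in CRS replicate 4 alone (0.85 ± 0.27, adjusted p = 0.292).

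With the ACBP pump, CRS+ACBP was compared with ACBP. The share of all genes called by edgeR was 0 (20 genes by DESeq2 and 19 by voom). None of the 10 was called (0 by DESeq2 and by voom). An unadjusted p under 0.05 was found for 1, Apom, beside 7.32% of all genes. Apoa4 was at 355, 606, 380.2, 451 and 334 CPM (0.74 ± 0.55, adjusted p = 0.782), with replicates 1 and 5 inside the ACBP range of 154 to 365 and the other 3 above it. Apom was at 174, 130.3, 116, 108 and 63.0 CPM (0.61 ± 0.27, adjusted p = 0.65). Against CRS alone, CRS+ACBP had a share of 0 of all genes called (1 gene by DESeq2, 3 by voom). None of the 10 was called (0 by DESeq2 and by voom). At an unadjusted p under 0.05 there were 0 of the 10, beside 2.87% of all genes. Differences ran from −0.19 in Apoa4 to 0.40 in Apoc3. The interaction of CRS and ACBP likewise was called for a share of 0 of all genes (4 genes by DESeq2, 1 by voom). None of the 10 was called for it (0 by DESeq2, 0 by voom, and 0 unadjusted beside 2.38% of all genes). The ACBP pump alone, ACBP against PBS, had a share of 0 of all genes called (9 genes by DESeq2, 2 by voom). None of the 10 was called (0 by DESeq2 and by voom, and 1 unadjusted, Apom, beside 4.38% of all genes). There Apom was at 54.5, 75.8, 107, 65.4 and 83.7 CPM (0.57 ± 0.27, adjusted p = 0.999). A p that misses the threshold does not show that levels were alike. In the 8 lists, edgeR called 0 genes in each of these 5 comparisons without cisplatin.

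The 2 anorexia models were compared directly. In CDDP against CRS, 34.6% of all genes were called, 19.5% higher and 15.1% lower, and 5 of the 10 were, 3 higher and 2 lower. Apoa4 (4.61 ± 0.64, adjusted p = 6.48e-06, and 3.46 without CDDP replicate 2), Apom (1.56 ± 0.27, adjusted p = 8.67e-05) and Mttp (0.98 ± 0.23, adjusted p = 0.00137) were higher in CDDP. Apoc1 (−0.81 ± 0.22, adjusted p = 0.00458) and Apoa2 (−0.66 ± 0.19, adjusted p = 0.00878) were lower. Both of these calls were lost in a fit of the CDDP and CRS libraries alone (adjusted p of 0.0717 and 0.0671), and that of Apoa2 without the filter on low counts (0.0606). Libraries did not overlap for 3 of the 10 (Apoa2, Apom and Mttp) and for 19.2% of all genes. CDDP replicate 1, at 443 CPM of Apoa4, lay inside the CRS range of 291 to 711. Apob, above PBS in both models, was at 2113 ± 361 CPM in CDDP and 1868 ± 315 in CRS (0.18 ± 0.15, adjusted p = 0.39).

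By mean level, Apoa4 ordered as CDDP, CRS (486 ± 156), CRS+ACBP (425 ± 110), CDDP+ACBP (278), ACBP (254) and PBS (207 ± 47.6 CPM). The libraries of each group overlapped those of the next in that order, CDDP and CRS through CDDP replicate 1 alone. Apom ordered as CDDP (278 ± 59.1), CRS+ACBP (118 ± 40.0), CDDP+ACBP (96.3), CRS (93.9 ± 24.6), ACBP (77.3) and PBS (52.2 ± 16.7) CPM. CDDP lay apart, and below it each group overlapped the next. For Apoc1 the order was ACBP (8292 ± 931), PBS (7850.2 ± 948), CDDP+ACBP (6950 ± 1248), CRS+ACBP (6803 ± 1089), CRS (6007 ± 271) and CDDP (3415 ± 1615 CPM), where each group again overlapped the next.

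Likeness over the 6 group means was sought among 10106 genes with at least 5 CPM in 1 group. Genes with provisional symbols (Gm, Rik or clone names) were left out, so Gm10680, which shares reads with Apoa4, was not ranked. Among the rest, Cbr3, Bhlha15 and Slpi had the pattern nearest to that of Apoa4. Their root mean square differences were 0.40, 0.43 and 0.46 on the log2 scale, beside a span of 4.68 for Apoa4. For Apom the nearest were Rpl41, Tmem116 and Rpl3-ps1 (0.12, 0.12 and 0.13). For Mttp they were Eif3b, Pithd1 and Ube2k, for Apoc1 Pxdn, Lmo2 and Fxyd1, for Apoa2 Clec4g, Cd59a and Anpep, and for Apoa5 Asl, Mt1 and Lrrc8a, all within 0.063. The likeness rests on 6 means that share the same libraries, and with so many genes some lie close to any pattern.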

How the data were processed

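The submitters' processing notes name HISAT2 2.2.1, HTSeq 2.0.3 and build mm10. Per the labels, 1.5 µg of total RNA per sample went into mRNA libraries that keep strand. The table was deposited as raw counts for each gene, and not given in the sources used here are the annotation release and strand setting. Library sizes leave out 5 summary lines; a median of 38.0% of reads in the table lay on genes. Coordinates come from GENCODE vM21, which matched 99.2% of genes. Groups came from the treatment label.

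R 4.3.3 with edgeR 4.0.16 (TMM, filterByExpr, quasi-likelihood) fitted all 30 libraries at once, leaving 24 residual degrees of freedom, with p-values Benjamini-Hochberg adjusted over 16304 genes in each of 10 comparisons. SE was derived from the log2 fold change and F. DESeq2 1.42.0 and limma 3.58.1 (voom) were alternatives. The fit was checked on simulated counts. Replicates were compared for copies (smallest chi-square per degree of freedom 21.1). The 10 genes and the lists were chosen with earlier results of these data known. Of each of 8 pathway lists, the counts and up to 4 called genes of smallest p were named; further list genes were named with their values known. Likeness used genes of at least 5 CPM in 1 group whose symbol is not provisional. Figures used Python 3.11.15 and matplotlib 3.10.9.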

Additional observations from a re-analysis of the deposited data

Results flagged for a closer look

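In the screen of 60 pairs of a gene and a group of 5 libraries for 1 library far from the rest by Dixon's criterion (0.71), 2 stood out, where chance gives about 1 in 20 pairs. Apoa4 in CDDP replicate 2 was at 37953 CPM, and the other CDDP libraries were at 443 to 10303 (ratio of gap to range 0.737). Apob in PBS replicate 5 was at 1326 CPM, and the other PBS libraries were at 1444 to 1483 (ratio 0.753).

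The effect of cisplatin under the ACBP pump differed from that under the PBS pump for 7 genes, tested by edgeR as an interaction. The log2 difference was −5.71 for Apoa4 (adjusted p = 8.62e-05), −2.10 for Apom (0.00061), −1.22 for Apoa5 (0.0159), −1.05 for Mttp (0.02), −0.66 for Apob (0.0321), 0.95 for Apoc1 (0.0285) and 0.83 for Apoa2 (0.0292).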

How the results depend on the processing

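No call reversed under any alternative: RLE or plain library totals, no filter on low counts, 1 CPM in 5 libraries, DESeq2, limma voom, a muscle score covariate, leaving out 7 libraries rich in muscle or brain transcripts, only the groups compared, or each library left out. Of 28 calls among 100 values, 14 were lost under at least 1 setting and 5 values gained a call. CDDP against PBS kept 7 or 8 of the 10 genes throughout. In a fit of only the groups compared, the members called were 3 in CDDP+ACBP against CDDP, 3 in CDDP against CRS, 4 for the interaction and 1 in CRS against PBS, where voom called 3. The interaction kept 4 without the filter and 2 without the libraries rich in muscle or brain transcripts. Leaving out 1 library gave 7 to 8 members for CDDP against PBS, 6 to 9 for CDDP+ACBP against CDDP, 5 to 6 for CDDP against CRS and 5 to 7 for the interaction. The cause of these shifts was not tested. No paired analysis was possible because the labels number the libraries 1 to 30 without pairing them between groups.

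Over all genes, the count called moved by over 1.5 times in CRS against PBS (23, and 9 without the muscle- or brain-rich libraries, 82 by DESeq2, 265 in the fit of those groups, 930 by voom). In CDDP+ACBP against CDDP it was 5503, with 2217 in the fit of those groups and 3530 by voom. In CDDP against CRS it was 5639, with 3709 in the fit of those groups. The interaction had 3216, and 1722 without the muscle- or brain-rich libraries. CDDP+ACBP against ACBP had 21, 0 without those libraries, 2 in the fit of those groups, 9 with plain totals, 70 by voom and 91 by DESeq2. Where edgeR called 0 genes, DESeq2 and voom called 20 and 19 in CRS+ACBP against ACBP, 9 and 2 in ACBP against PBS, 1 and 3 in CRS+ACBP against CRS and 4 and 1 for the interaction of CRS and ACBP; in ACBP against PBS the muscle score covariate and the fit with no filter each gave 1, and the fit of only the groups compared gave 1 for the CRS interaction. The lowest group mean among the 10 genes was 52.2 CPM, in libraries of at least 13957380 reads on genes.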
